A study of Mus musculus with 6 samples.

Results

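Translation initiation factors (eIFs) and elongation factors (eEFs) are the proteins that bring a ribosome to an mRNA, set it on a start codon and then move it along the reading frame. All genes of the deposited count table whose symbol begins with Eif1 to Eif6, Eef1 or Eef2 were taken, which includes the 4E-binding proteins that hold back the cap-binding protein eIF4E. Of 67 symbols that matched, 2 eIF2α kinase genes were left out by the rule and 65 of the table's 17890 genes remained. Genes were taken by name alone, but the set itself was chosen with earlier results of these data known.

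The genes were measured by bulk RNA sequencing of mouse mast cells from lymph nodes. There were 3 libraries labelled mLN, from nodes with metastases, and 3 labelled uLN, from uninvolved nodes. All 6 come from the same tissue and no treatment or mutation is labelled in either group. The sources used here do not give how the cells were isolated, which tumour was used, or the strain and age of the mice. No label ties the 3 libraries of a group to separate animals, so p-values rest on library-to-library spread alone, and this may be technical.

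Initiation starts when eIF2, carrying GTP and the initiator tRNA, joins eIF1, eIF1A, eIF3 and eIF5 on the small ribosomal subunit, while eIF4E, eIF4G and the helicase eIF4A, together called eIF4F, bind the mRNA's cap. The pathway has a pair of well-known control points. Kinases that phosphorylate eIF2α turn eIF2 into an inhibitor of its exchange factor eIF2B, and the 4E-binding proteins keep eIF4E from eIF4G until the kinase mTORC1 phosphorylates them. Mast cells are secretory cells that store proteases and other mediators in granules and make further proteins, such as cytokines, when they are activated. All values below are RNA levels, and protein, phosphorylation and translation were not measured.

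Library totals ran from 17643916 to 17799420 estimated counts, so depth differed little. The summed level of 11 mast cell markers was 42856 to 45596 CPM (read counts scaled to library size with TMM factors) in mLN and 43810 to 45731 in uLN, although single markers moved both ways, with 4 higher and 5 lower. The mLN libraries were less alike than the uLN libraries: the median chi-square per gene was 2.48 and 2.58 between mLN replicate 3 and the other 2 mLN libraries, 0.736 between mLN replicates 1 and 2, 0.655 to 0.70 among uLN pairs and at least 13.1 between groups, where counting error alone gives 0.45. Markers of other cell types were not evenly spread. The 8 keratinocyte and epithelial markers summed to 158, 16.2 and 35.1 CPM in mLN replicates 1, 2 and 3, and to 17.1, 17.3 and 8.04 in uLN, with 3 of 4 tested higher. The 6 fibroblast markers summed to 112, 12.5 and 25.8 CPM in mLN and to 10.8, 13.1 and 3.73 in uLN, with 3 of 3 tested higher. The 8 macrophage markers summed to 223 to 248 CPM in mLN and 279 to 391 in uLN, with 2 higher and 5 lower. The 4 endothelial markers summed to 588 to 635 CPM in mLN and 581 to 604 in uLN. B cell, T cell and neutrophil markers summed to at most 0.723, 3.33 and 0.222 CPM in an mLN library, and to at most 0.517, 5.22 and 0.172 CPM in a uLN library. Epcam, Ms4a1, Cd3g and S100a9 had under 3 reads in every library, and of the endothelial markers Cdh5, Kdr and Tie1 had at most 6 reads in a library of either group, so that Pecam1 made up that sum. The part of other cells in the differences below was not tested. In such bulk samples, fewer cells of a type and less RNA per cell cannot be told apart.

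Of the 65 genes, 63 had enough reads to be tested and 45 of these were called at an adjusted p under 0.05 by the quasi-likelihood test of edgeR, with Benjamini-Hochberg adjustment over all 12706 tested genes. That is 71.4% of the tested factors, beside 67.4% of all tested genes, so a call by itself says little here. The call was upward for 19 factors (30.2%, beside 33.2% of all tested genes) and downward for 26 (41.3%, beside 34.2%). The groups did not overlap for 48 factors (76.2%, beside 72.9% of all tested genes). Differences were modest. The median size of a log2 fold change was 0.37 for the factors and 0.40 over all tested genes, and the signed medians were -0.06 and -0.01. A called difference of at least 1.5-fold was found for 16 factors, 6 higher and 10 lower, which is 25.4% of those tested beside 32.5% of all tested genes. Without mLN replicate 1, 20 factors were higher and 25 lower, and without mLN replicate 3 there were 21 higher and 26 lower. The factors did not move as a block: eIF2B, eIF3 and eIF4F with its helpers each held genes on both sides. Summed over all 65 genes, the level was 12808, 13195 and 13582 CPM in mLN and 14321, 14213 and 14553 CPM in uLN, 0.919-fold, with no overlap between the groups.

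**Figure D1:**
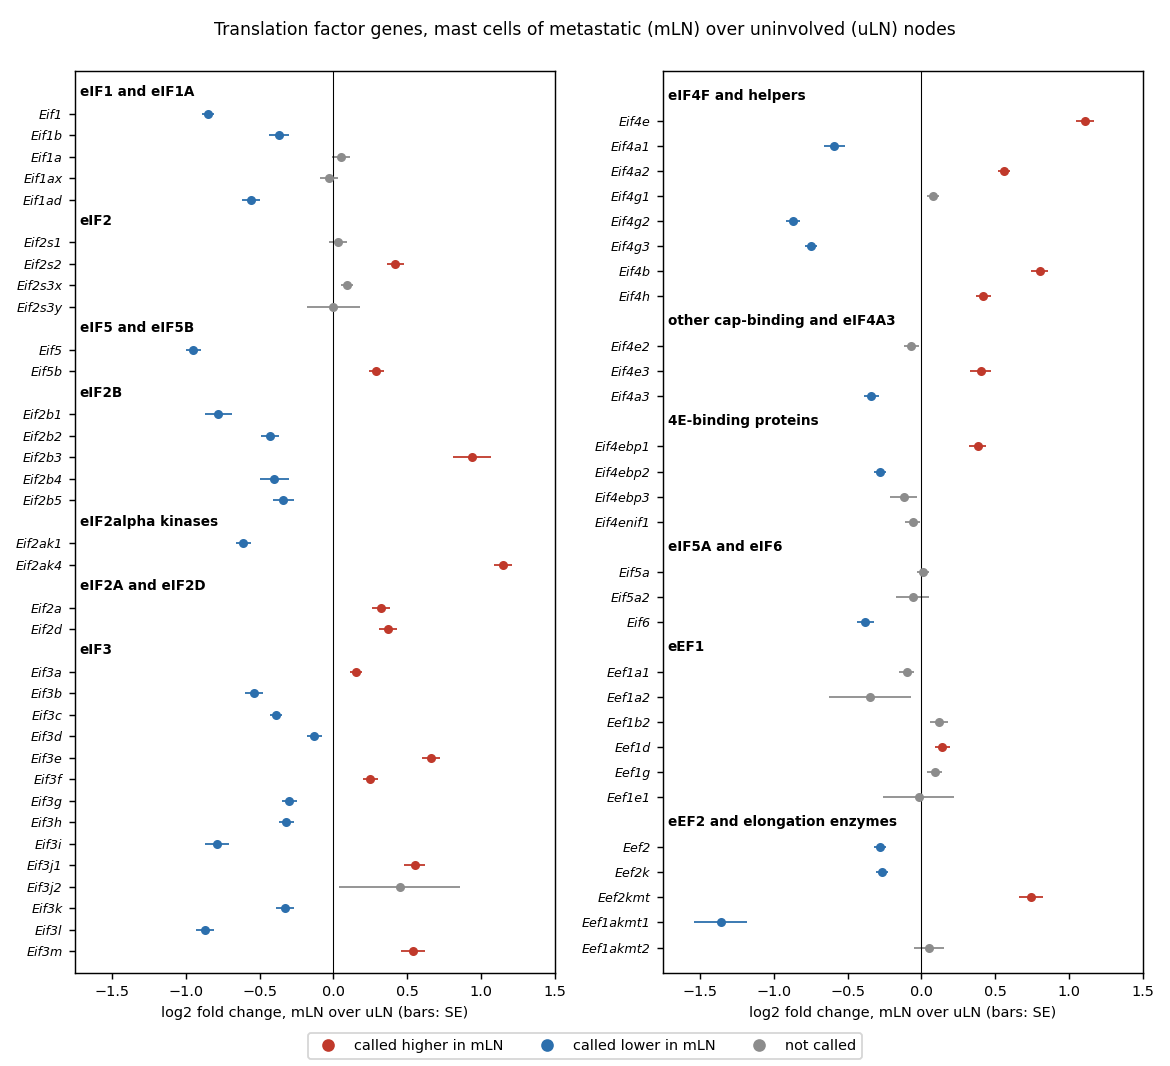
Log2 fold change of mLN over uLN for the 63 tested factors, grouped by role, with standard errors as bars. Red points were called higher (19), blue points lower (26) and grey points were not called (18), and eIF2B, eIF3 and eIF4F each hold red and blue points.

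Eif1 and Eif5, which help to choose the start codon, were both lower in mLN, while the eIF1A genes were not called. Eif1, the factor that holds the scanning ribosome open and rejects poor start sites, had 198, 200 and 204 CPM in mLN libraries, against 350, 370 and 365 CPM in uLN libraries. Every mLN value lay well under every uLN value, and the log2 fold change was -0.85 ± 0.04 (SE; adjusted p = 7.18e-08). Eif5, which makes eIF2 hydrolyse its GTP and so commits the ribosome to a start codon, had 157, 165 and 147 CPM in mLN and 302, 292 and 313 CPM in uLN. It had the lowest fold change of any factor above 5 CPM, at -0.95 ± 0.05 (adjusted p = 1.45e-07). The gene lies on chromosome 12 from 111538101 to 111546753 (GRCm38.p6), and Eif1 on chromosome 11 from 100319949 to 100322099. Eif1b, a close copy of Eif1, had 34.1, 32.2 and 31.6 CPM in mLN against 39, 43.7 and 44.2 in uLN (-0.37 ± 0.07, adjusted p = 0.00063). Eif1ad, named for its eIF1A domain, was also lower (-0.56 ± 0.06), at 32.6 ± 0.907 CPM in mLN and 48.1 ± 2.72 in uLN (SD, n = 3 each). Eif1ad shares its locus with Banf1, so reads could be split between these genes.

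Of the eIF1A genes, whose protein works beside eIF1, Eif1a had 45.5, 46.5 and 47.8 CPM in mLN and 47.9, 44.4 and 42.9 CPM in uLN (0.05 ± 0.06, adjusted p = 0.496). Eif1ax, its X-linked counterpart, had 32.2, 31.2 and 30.7 CPM in mLN and 32.8, 30.6 and 32.9 CPM in uLN (-0.03 ± 0.06, adjusted p = 0.647). Both overlapped between the groups. Eif5b, the GTPase that joins the large subunit after the start codon is found, went the other way from Eif5, with 117, 116 and 125 CPM in mLN against 97.7, 98.1 and 96.6 CPM in uLN (0.29 ± 0.05, adjusted p = 0.000236).

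Of the subunits of eIF2, only the β subunit gene was called. Eif2s2, which encodes it, had 76.5, 71.1 and 80.3 CPM in mLN and 56.9, 56.8 and 57 CPM in uLN, a log2 fold change of 0.42 ± 0.06 (adjusted p = 7.2e-05). Eif2s1, the α subunit that carries the regulatory phosphorylation site, had 53.9, 60.8 and 54.7 CPM in mLN and 53.7, 56.2 and 56 CPM in uLN (0.03 ± 0.06, adjusted p = 0.669). Eif2s3x, the γ subunit, had 178, 177 and 189 CPM in mLN and 172, 170 and 168 in uLN; the groups did not overlap, but 0.09 ± 0.04 missed the threshold (adjusted p = 0.0851). Its Y-linked copy Eif2s3y was listed at 3.34 to 4.49 CPM in mLN and 3.5 to 4.14 in uLN (log2 fold change 0.00 ± 0.18), with values that were not whole numbers in any library. The Y-linked genes Ddx3y and Kdm5d had 1 to 8 and 1 to 3 reads in an mLN library, and 1 to 2 reads each in a uLN library. Uty, also Y-linked, had 58, 67 and 56 reads in mLN and 54, 61 and 56 reads in uLN. How many of the Eif2s3y reads belong to its X-linked copy was not tested. Eif2a and Eif2d, which encode proteins outside eIF2 that can deliver initiator tRNA, were both higher. Eif2a had 60.6 ± 4.79 CPM in mLN and 48.7 ± 1.12 in uLN (0.32 ± 0.06, adjusted p = 0.00122). Eif2d had 94.6 ± 7.79 CPM in mLN and 73.4 ± 1.09 in uLN (0.37 ± 0.06, adjusted p = 0.000367; SD, n = 3 each).

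All 5 subunit genes of eIF2B, the exchange factor that reloads eIF2 with GTP, were called, beside 67.4% of all tested genes. Among the 5, 1 ran against the others. Eif2b3, which encodes the γ subunit, had 10.8, 12.4 and 13.3 CPM in mLN against 5.45, 6.89 and 6.72 CPM in uLN. All mLN libraries were above all uLN libraries, 1.91-fold on average (log2 fold change 0.94 ± 0.13, adjusted p = 8.13e-05). Eif2b1, the α subunit, had 13.6, 12 and 11 CPM in mLN and 20.3, 20.4 and 22.3 CPM in uLN (-0.78 ± 0.09, adjusted p = 3.17e-05).

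Eif2b2, the β subunit, had 26.3, 28.1 and 27.5 CPM in mLN and 36.5, 37 and 37.2 CPM in uLN (-0.43 ± 0.06). Eif2b4, the δ subunit, had 18.3, 16.6 and 13.6 CPM in mLN and 20.9, 21.8 and 21.7 CPM in uLN (-0.40 ± 0.10, adjusted p = 0.00492). Eif2b5, the ε subunit that carries the catalytic domain, had 24.2, 23.5 and 24.5 CPM in mLN and 30, 29.1 and 32.1 CPM in uLN (-0.34 ± 0.07). None of these overlapped between the groups, as was so for 72.9% of all tested genes. Per kilobase of exon, Eif2b3 was the lowest of the 5 in both groups, at 3.02 ± 0.304 CPM per kb in mLN and 1.58 ± 0.196 in uLN, and Eif2b2 the highest, at 17.0 ± 0.568 in mLN and 23.0 ± 0.243 in uLN. Eif2s1 encodes a subunit of eIF2, on which eIF2B acts. The within-library ratio of Eif2b5 to Eif2s1 per kb was 0.599, 0.514 and 0.596 in mLN and 0.746, 0.691 and 0.764 in uLN.

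The 2 eIF2α kinase genes in the set moved in opposite directions. Eif2ak4 encodes GCN2, which is activated by uncharged tRNA when amino acids are short. It had 74.4, 72.7 and 81.8 CPM in mLN and 34.1, 33.8 and 35 CPM in uLN. The groups were far apart, and 1.15 ± 0.06 (adjusted p = 9.3e-08) was the highest log2 fold change of all the factors. Eif2ak4 lies on chromosome 2 from 118388583 to 118475234. Eif2ak1 encodes HRI, the kinase activated by heme shortage and by mitochondrial stress. It had 60.7, 62 and 64.4 CPM in mLN and 96, 92.8 and 97.2 CPM in uLN, again with no overlap (-0.61 ± 0.05, adjusted p = 1.6e-06). Eif2ak1 overlaps the coding genes Aimp2 and Ankrd61, and whether the counting used strand is not given in the sources used here.

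Other genes of the integrated stress response, the programme that eIF2α phosphorylation sets off, were found on both sides: of 28 tested, 8 were higher, 14 lower and 6 not called. The list's median of -0.15 on the log2 scale stands beside -0.01 over all tested genes, of which 33.2% were higher and 34.2% lower. The counts and medians of the complexes and lists below are to be read against the same values. Dele1, whose product relays mitochondrial stress to HRI, had 65, 66.1 and 65.7 CPM in mLN and 216, 212 and 213 CPM in uLN (-1.70 ± 0.04, adjusted p = 1.47e-09). The transcription factor gene Atf5 had 23.7, 22.7 and 18 CPM in mLN and 110, 108 and 97.6 CPM in uLN (-2.29 ± 0.09, adjusted p = 1.97e-08). Atf4, the main effector of the response, whose own translation is raised by eIF2α phosphorylation, had 183, 184 and 163 CPM in mLN and 333, 342 and 367 CPM in uLN. Atf4 fell by 0.97 on the log2 scale (SE 0.06, adjusted p = 2.64e-07), with no overlap between the groups. Ddit3, which encodes the Atf4 target CHOP, had 68.4, 68.8 and 66 CPM in mLN and 114, 112 and 112 CPM in uLN (-0.73 ± 0.04). Vldlr, a lipoprotein receptor gene, had the highest fold change of the 8 higher genes, with 14.1, 11.1 and 13.3 CPM in mLN and 1.72, 2.03 and 2.07 CPM in uLN (2.72 ± 0.15, adjusted p = 1.56e-07). Ppp1r15a, which encodes GADD34, the phosphatase subunit that reverses eIF2α phosphorylation, had 455, 471 and 462 CPM in mLN and 472, 484 and 537 CPM in uLN and was not called (-0.10 ± 0.05, adjusted p = 0.101). The count of higher genes in this list depended on the settings, and was 5 with DESeq2, with no expression filter, without uLN replicate 1 and without uLN replicate 2.

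The eIF3 complex, the scaffold that holds the initiation factors on the small subunit, was split by subunit. Of 14 genes, 5 were higher, 8 lower and 1 not called, and the summed level barely differed, at 1585 ± 33.4 CPM in mLN and 1613 ± 8.51 CPM in uLN (SD, n = 3 each). The eIF3b, eIF3g and eIF3i genes, whose proteins form a mobile module of the complex, were all lower (3 of 3). Of all tested genes, 33.2% were higher and 34.2% lower, and a count over so few genes says little. The 8 genes for the subunits that build the eight-part core (a, c, e, f, h, k, l and m) divided evenly, 4 higher and 4 lower.

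Eif3l had 56.4, 55.6 and 48.7 CPM in mLN and 97.5, 97.9 and 98.8 CPM in uLN. The groups were well separated, and Eif3l had the lowest fold change of the complex (-0.87 ± 0.06, adjusted p = 6.46e-07). Eif3i had 21.5, 24.1 and 19.8 CPM in mLN and 36.9, 37.6 and 38.7 CPM in uLN, also with no overlap (-0.79 ± 0.08, adjusted p = 7.69e-06). Eif3b, an RNA-binding subunit that contacts eIF3i and eIF3g, had 112, 116 and 99.4 CPM in mLN and 161, 156 and 156 CPM in uLN (-0.54 ± 0.06). Eif3e went the other way, with 189, 193 and 214 CPM in mLN and 126, 122 and 129 CPM in uLN. It was the most raised subunit, with no overlap between the groups (0.66 ± 0.06, adjusted p = 2.79e-06). Eif3j1, which encodes a loosely bound subunit, had 105, 99.1 and 119 CPM in mLN and 73.5, 72.4 and 75.1 CPM in uLN (0.55 ± 0.07). Eif3m had 76.4, 76.9 and 89.5 CPM in mLN and 50.6, 57.6 and 58.7 CPM in uLN (0.54 ± 0.08). Eif3m is annotated over Ccdc73 and Eif3j1 over Spg11, and both hold values that are not whole numbers.

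The remaining subunits differed less. Eif3f (0.25 ± 0.05) and Eif3a (0.15 ± 0.04) were higher, and Eif3c (-0.39 ± 0.04), Eif3k (-0.33 ± 0.06), Eif3h (-0.32 ± 0.05) and Eif3g (-0.30 ± 0.05) were lower. Eif3d, a subunit that can itself bind a cap, was called lower at -0.13 ± 0.05 (adjusted p = 0.0447), a call that was lost under 11 of 13 other settings, among them both other scalings and DESeq2. Eif3j2, a second eIF3j gene with few reads, had 1.53, 5.5 and 6.03 CPM in mLN and 3.61, 2.37 and 3.56 CPM in uLN. The low value was that of mLN replicate 1. Eif3j2 was not called in the full set (0.45 ± 0.41, adjusted p = 0.35). Without mLN replicate 1 its log2 fold change was 0.86 (adjusted p = 0.00435). Its values were not whole numbers in any library, and how many of its reads belong to Eif3j1 was not tested.

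Per kilobase of exon, the order of the eIF3 genes differed between the groups. Eif3e was first in mLN at 132 ± 8.99 CPM per kb, against 83.4 ± 2.52 in uLN. Eif3h was second in mLN at 99.6 ± 3.95 CPM per kb, beside Eif3f at 99.3 ± 4.82, and first in uLN at 124 ± 3.48. In uLN, Eif3f (83.8 ± 3.13) and Eif3e lay within their spread. Eif3i and Eif3j1 were level in mLN, at 19.4 ± 1.91 and 19.9 ± 1.94 CPM per kb, and apart in uLN, at 33.6 ± 0.781 and 13.6 ± 0.259.

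**Figure D2:**
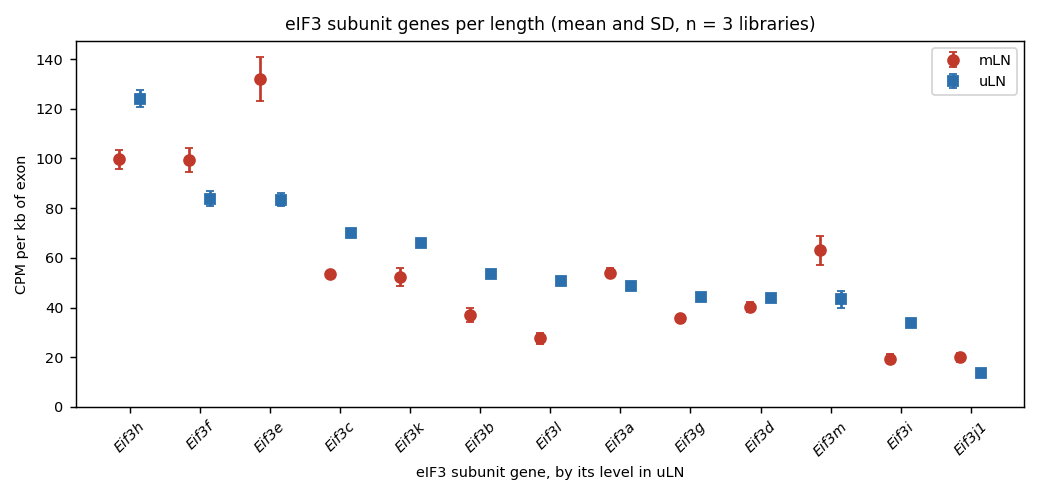
Levels of 13 eIF3 subunit genes in CPM per kilobase of exon (mean and SD of 3 libraries), with mLN as red circles and uLN as blue squares, ordered by the uLN level. Eif3e, Eif3m and Eif3j1 stand clearly higher in mLN, and Eif3l, Eif3i and Eif3b clearly lower.

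Genes of the cap-binding complex moved apart: of 8 genes of eIF4F and its helpers, 4 were higher, 3 lower and 1 not called. Eif4e, which encodes the protein that grips the mRNA cap, had 56.2, 58 and 62.1 CPM in mLN and 27.3, 28.1 and 26.4 CPM in uLN. Each mLN library held more than every uLN library, 2.15-fold on average (log2 fold change 1.11 ± 0.06, adjusted p = 1.44e-07). Eif4e lies on chromosome 3 from 138526191 to 138559696, and its values were not whole numbers, as counting tools give when reads are shared between genes or transcripts.

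The scaffold genes did not follow Eif4e. Eif4g1, the main scaffold that joins eIF4E, eIF4A and eIF3, had 353, 364 and 348 CPM in mLN and 343, 329 and 333 CPM in uLN. The groups did not overlap, but the difference of 0.08 ± 0.04 was not called (adjusted p = 0.0951). Eif4g3, the gene of its paralogue eIF4GII, had 299, 311 and 296 CPM in mLN and 531, 498 and 499 CPM in uLN (-0.75 ± 0.04, adjusted p = 2.31e-07). Eif4g2, which encodes DAP5, a relative of eIF4G that lacks the eIF4E-binding site and works in cap-independent initiation, had 403, 417 and 381 CPM in mLN and 731, 718 and 744 CPM in uLN. Both paralogues were lower in every mLN library, and Eif4g2 fell by 0.87 on the log2 scale (SE 0.05, adjusted p = 9.72e-08).

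The helicase genes moved in opposite directions. Eif4a1 had 170, 170 and 144 CPM in mLN and 229, 251 and 250 CPM in uLN (-0.59 ± 0.07, adjusted p = 2.7e-05). Eif4a2 had 380, 386 and 387 CPM in mLN and 258, 257 and 269 CPM in uLN (0.56 ± 0.04, adjusted p = 9.86e-07). Per kilobase of exon, Eif4a2 was at 120 ± 1.26 CPM per kb in mLN against 81.8 ± 2.08 in uLN, and Eif4a1 at 90.9 ± 8.57 in mLN against 137 ± 6.82 in uLN, so that the order of the 2 genes differed between the groups. In CPM, Eif4a2 was above Eif4a1 in every library of both groups. The change of order thus rests on the exon lengths used, 3197 bases for Eif4a2 and 1774 for Eif4a1. Eif4a2 shares its locus with Rfc4 and with small nucleolar RNA genes.

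The genes of both proteins that stimulate the helicase were higher. Eif4b had 580, 566 and 676 CPM in mLN and 357, 340 and 346 CPM in uLN. All mLN values were higher, with replicate 3 above the other 2 (0.80 ± 0.06, adjusted p = 1.98e-06). Eif4h had 250, 260 and 280 CPM in mLN and 202, 196 and 194 CPM in uLN (0.42 ± 0.05, adjusted p = 3.42e-05). Summed over the 8 genes of eIF4F and its helpers, the level was 2532 ± 41.7 CPM in mLN and 2652 ± 32.2 in uLN, which hides these opposite moves.

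**Figure D3:**
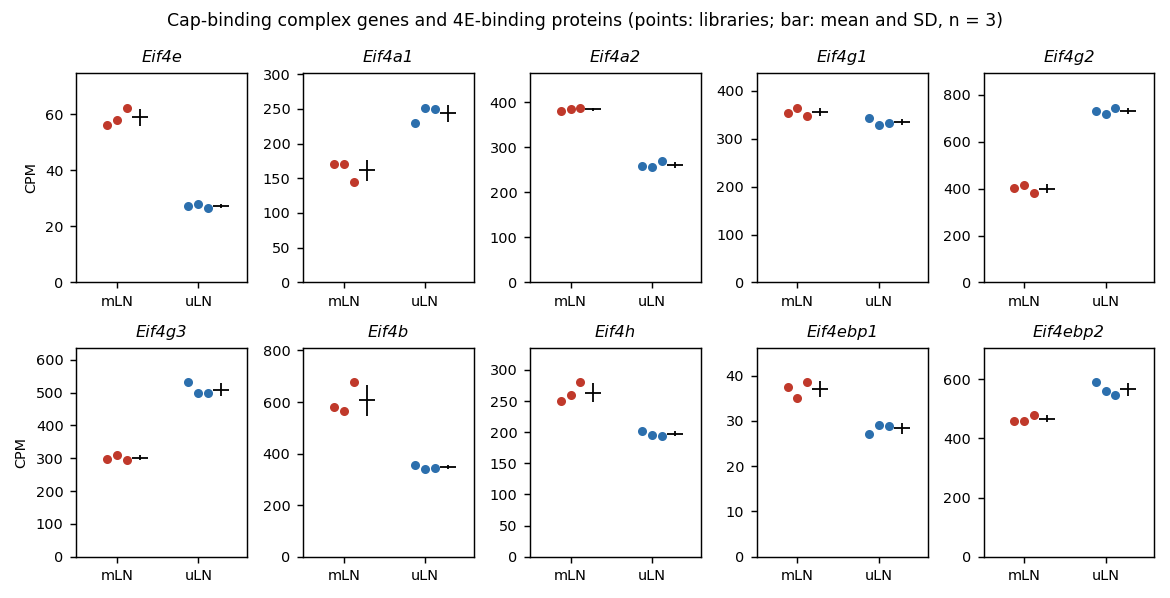
CPM in each library (points) with the mean and SD of 3 libraries (bars) for 8 genes of eIF4F and its helpers and for Eif4ebp1 and Eif4ebp2, each panel on its own linear axis from 0. Eif4e, Eif4a2, Eif4b, Eif4h and Eif4ebp1 sit higher in mLN, Eif4a1, Eif4g2, Eif4g3 and Eif4ebp2 lower, and Eif4g1 lies close to uLN.

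The genes of the 4E-binding proteins, which compete with eIF4G for eIF4E, had fold changes below that of Eif4e. Eif4ebp1 had 37.4, 35.1 and 38.5 CPM in mLN and 27, 29.1 and 28.9 CPM in uLN, a rise of 1.31-fold (0.38 ± 0.06, adjusted p = 0.000375). Eif4ebp2 had 460, 459 and 479 CPM in mLN and 589, 560 and 547 CPM in uLN (-0.28 ± 0.04, adjusted p = 0.000235). Neither gene overlapped between the groups. Eif4ebp3 had 13.3, 14.4 and 11.8 CPM in mLN and 14.6, 13.7 and 14.6 CPM in uLN and was not called (-0.12 ± 0.09, adjusted p = 0.29). Eif4enif1, the gene of the eIF4E transporter 4E-T, had 80.3 ± 2.02 CPM in mLN and 83.5 ± 4.74 CPM in uLN (-0.06 ± 0.05, adjusted p = 0.381).

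Within each library, the ratio of Eif4ebp2 to Eif4e per kilobase of exon was 7.26, 7.01 and 6.84 in mLN and 19.1, 17.7 and 18.4 in uLN. The ratio of Eif4ebp1 to Eif4e was 1.71, 1.55 and 1.59 in mLN and 2.54, 2.66 and 2.81 in uLN. Both repressor genes were thus lower relative to Eif4e in all mLN libraries, 0.383-fold and 0.607-fold. Per kilobase, Eif4ebp2 stood at 80.6 ± 1.98 CPM in mLN and 97.8 ± 3.73 in uLN, above Eif4ebp1 at 18.5 ± 0.879 in mLN and 14.2 ± 0.584 in uLN, and above Eif4ebp3 at 17.7 ± 1.74 in mLN and 19.2 ± 0.669 in uLN. Eif4ebp1 and Eif4ebp3 did not differ beyond their spread in mLN.

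The other cap-binding genes moved less than Eif4e. Eif4e2, which encodes 4EHP, a cap-binding protein that represses translation, had 55.7 ± 0.269 CPM in mLN and 58.5 ± 1.88 in uLN and was not called (-0.07 ± 0.05, adjusted p = 0.234). Eif4e3 had 46 ± 3.1 CPM in mLN and 34.9 ± 1.73 in uLN (0.40 ± 0.07, adjusted p = 0.00042; SD, n = 3 each). Eif4e1b, a germline member of the family, had at most 0.612 CPM in any mLN library and 0.574 CPM in any uLN library and was not tested. Eif4a3, the helicase of the exon junction complex, was lower (-0.34 ± 0.05). Per kilobase, the ratio of Eif4e2 to Eif4e was 0.676, 0.661 and 0.612 in mLN and 1.41, 1.46 and 1.54 in uLN.

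The genes were compared pairwise in 13 within-library ratios chosen by family or partnership. In 9 of them the 3 mLN libraries did not overlap the 3 uLN libraries, beside 72.9% of all tested genes taken singly. The exact two-sided permutation test then gave p = 0.1, the smallest that 3 libraries against 3 allow, and an adjusted p of 0.14 over the 13 pairs, so none could pass 0.05. In log2 terms the difference was -1.38 for Eif4ebp2 to Eif4e, -1.18 for Eif4e2 to Eif4e, 1.15 for Eif4a2 to Eif4a1, -0.84 for Eif4g3 to Eif4g1, -0.72 for Eif4ebp1 to Eif4e, -0.71 for Eif4e3 to Eif4e, 0.66 for Eif4ebp1 to Eif4ebp2, 0.48 for Eif1b to Eif1 and -0.37 for Eif2b5 to Eif2s1. The other 4 pairs overlapped, and Eef2k to Eef2 differed by 0.01.

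**Figure D4:**
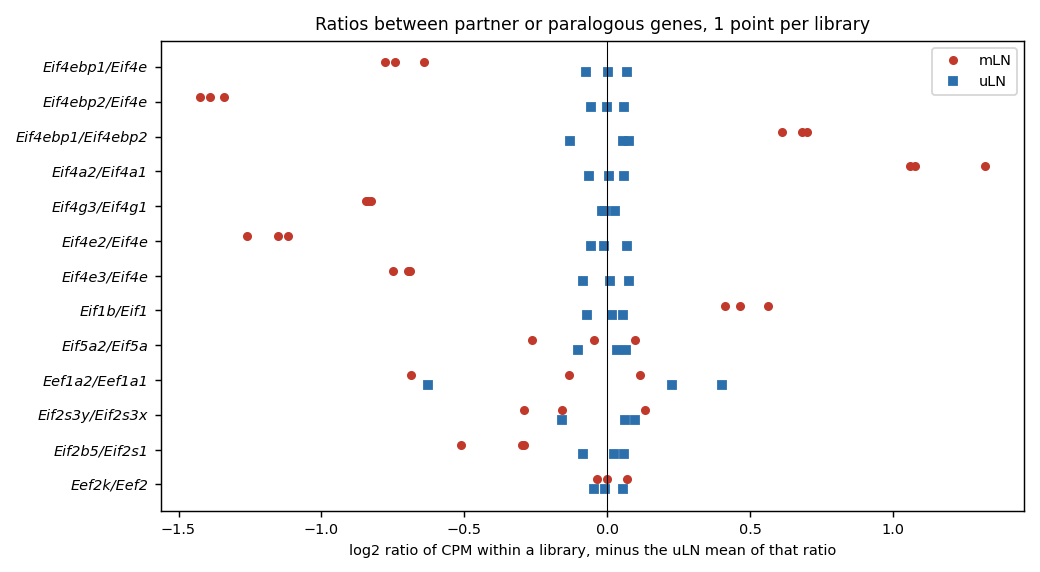
Within-library log2 ratios of CPM for 13 gene pairs, each minus the uLN mean of that pair, with 1 red circle per mLN library and 1 blue square per uLN library. The mLN libraries stand apart in 9 pairs, farthest for Eif4ebp2/Eif4e at -1.38, and overlap the uLN libraries for Eif5a2/Eif5a, Eef1a2/Eef1a1, Eif2s3y/Eif2s3x and Eef2k/Eef2. Taken singly, 72.9% of all tested genes had groups that did not overlap.

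Eif4e is a textbook target of Myc, which binds E-boxes of the form CACGTG, a hexamer that Mitf, a transcription factor of mast cells, also binds. The 250 bases before each RefSeq start were searched for this palindrome, which reads the same on both strands. An entry was used for 49 of the 65 genes, and 11 of these (22.4%) held the hexamer. Of 27025 genes of all kinds in the table of promoters, 6.86% held it. Some entries were left out for the factors but not for this wider set, so these shares are not strictly comparable. Of the 11 genes, 3 were higher in mLN, 5 lower and 3 not called. Of the factors used that lacked the hexamer, 11 were higher and 16 lower. The 8 called genes are shown because they carry the same hexamer yet lie on both sides of the comparison. Each line gives 30 bases from RefSeq (GRCm38.p6), 5′ to 3′ on the gene's strand, with the hexamer in capitals. The first 3 are higher in mLN and the last 5 lower.
Eif4e, chr3:138527028-138527057, plus strand: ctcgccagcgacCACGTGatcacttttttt
Eif4h, chr5:134639488-134639517, minus strand: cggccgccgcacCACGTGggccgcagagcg
Eif3f, chr7:108934335-108934364, plus strand: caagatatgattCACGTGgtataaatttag
Eif4a1, chr11:69672595-69672624, minus strand: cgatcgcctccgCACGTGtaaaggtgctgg
Eif1b, chr9:120492570-120492599, plus strand: cgtgcggacggtCACGTGgcggcggcgcgc
Eif3k, chr7:28981915-28981944, minus strand: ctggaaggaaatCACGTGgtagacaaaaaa
Eef2, chr10:81176576-81176605, plus strand: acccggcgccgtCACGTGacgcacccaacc
Eef2k, chr7:120842788-120842817, plus strand: cccggggacggcCACGTGagcccgggcgtg

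The hexamer stood 228 bases before the start in Eif4e, 189 in Eif4a1, 96 in Eif4h, 68 in Eif3f, 44 in Eif3k, 43 in Eef2, 31 in Eef2k and 24 in Eif1b. For Eif4e and Eef2k the start is an alternative one inside the annotated gene, and the window searched for Eif4e held 2 hexamers. The motif is a description of these letters, and binding was not measured.

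Upstream control by mTORC1, the kinase that releases eIF4E by phosphorylating the 4E-binding proteins, was covered by 28 genes, of which 10 were higher, 9 lower and 9 not called (median -0.08). Castor1, which encodes an arginine sensor that inhibits mTORC1, had 36.5, 32.4 and 32.1 CPM in mLN and 12.2, 10.6 and 12.2 CPM in uLN (1.53 ± 0.09, adjusted p = 1.65e-07). Its relative Castor2 had 27.8, 29.8 and 25 CPM in mLN and 59.6, 55.8 and 54.6 CPM in uLN (-1.04 ± 0.07, adjusted p = 6.82e-07). Tsc2, an inhibitor of the mTORC1 activator Rheb, had 88.9, 88.8 and 76.2 CPM in mLN and 168, 164 and 166 CPM in uLN (-0.97 ± 0.06). Thus inhibitors of the kinase stood on both sides. Flcn, which encodes folliculin, was higher (0.65 ± 0.06, adjusted p = 4.87e-06), at 203 ± 16.8 CPM in mLN and 129 ± 2.45 in uLN. Mtor itself had 66 ± 6.05 CPM in mLN and 81.8 ± 3.62 in uLN (-0.31 ± 0.07, adjusted p = 0.00248). The eIF4E kinase genes Mknk1 (0.18 ± 0.04) and Mknk2 (0.36 ± 0.06) and the cap- and TOP-binding Larp1 (0.40 ± 0.04) were higher. Rps6kb1, the S6 kinase gene (-0.02 ± 0.06), and Pdcd4, the eIF4A inhibitor (-0.08 ± 0.05), were not called.

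Among 24 other tested initiation and cap or poly(A) factors, 7 were higher, 9 lower and 8 not called (median -0.07). Ncbp2, the small subunit of the nuclear cap-binding complex, had 9.75, 11.9 and 9.07 CPM in mLN and 32.6, 34.6 and 35 CPM in uLN (-1.73 ± 0.10, adjusted p = 1.47e-07). Ctif, whose product links that complex to eIF3 for translation, went the other way, with 34.5, 33.1 and 35 CPM in mLN and 23.1, 22.4 and 21.1 CPM in uLN (0.62 ± 0.06, adjusted p = 1.24e-05). The RNA-binding protein gene Ybx1 (-0.47 ± 0.05) and Abcf1, whose product binds eIF2 (-0.49 ± 0.06), were lower.

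The elongation factor genes differed less, with 5 of 6 eEF1 genes not called. Eef1a1, whose protein brings aminoacyl-tRNA to the ribosome, took 34.4% of all counts of the 65 genes in mLN and 33.8% in uLN. Per kilobase of exon it stood at 2528 ± 146 CPM in mLN and 2703 ± 63.3 in uLN, and Eef2 at 422 ± 11.9 in mLN and 513 ± 6.85 in uLN. Eef1a1 had 4279, 4523 and 4804 CPM in mLN and 4781, 4787 and 4981 CPM in uLN. The highest mLN library lay among the uLN libraries, and the difference was not called (-0.10 ± 0.05, adjusted p = 0.0944), but it was called without mLN replicate 3 (-0.14, adjusted p = 0.00305). The exchange factor subunits Eef1b2 (0.12 ± 0.06, adjusted p = 0.0964) and Eef1g (0.09 ± 0.05, adjusted p = 0.154) were not called either. Eef1b2 had 146, 145 and 162 CPM in mLN and 131, 141 and 145 CPM in uLN. Eef1g had 149, 166 and 153 CPM in mLN and 145, 143 and 151 CPM in uLN.

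Eef1d, a further exchange factor subunit, had 64.7, 64.9 and 68 CPM in mLN and 58.5, 61 and 60.2 CPM in uLN. It was called higher at 0.14 ± 0.05 (adjusted p = 0.0284), a call that was lost under 7 of 13 other settings, among them DESeq2 and the fits without uLN replicate 1 and without uLN replicate 3. Eef1a2, the form of eEF1A known from muscle and neurons, had 2.79, 4.34 and 5.45 CPM in mLN and 5.9, 6.66 and 3.39 CPM in uLN (-0.35 ± 0.28, adjusted p = 0.305). Eef1e1, which encodes a scaffold protein of the tRNA synthetase complex, had 2.74, 3.78 and 3.22 CPM in mLN and 3.44, 2.31 and 4.14 CPM in uLN. Both had few reads, and Eef1e1 was not called either (-0.02 ± 0.24, adjusted p = 0.941). The translocase gene Eef2 was lower, with 1265, 1338 and 1310 CPM in mLN and 1584, 1562 and 1604 CPM in uLN (-0.28 ± 0.04, adjusted p = 0.000108). Eef2k, the kinase that switches eEF2 off, was lower as well, with 425, 428 and 410 CPM in mLN and 527, 498 and 498 CPM in uLN (-0.27 ± 0.04, adjusted p = 0.000257). The ratio of Eef2k to Eef2 per kilobase was 0.149, 0.142 and 0.139 in mLN and 0.148, 0.142 and 0.138 in uLN (exact permutation p = 0.7).

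The enzymes that modify elongation factors diverged. Eef2kmt, a lysine methyltransferase for eEF2, had 23.3, 22 and 20.3 CPM in mLN and 12.2, 13.5 and 13.4 CPM in uLN (0.74 ± 0.08, adjusted p = 2.05e-05); its locus overlaps Alg1. Eef1akmt1, a methyltransferase for eEF1A, had 1.92, 1.67 and 1.84 CPM in mLN and 4.47, 4.85 and 4.65 CPM in uLN. It had the lowest fold change of all the factors (-1.36 ± 0.18, adjusted p = 6.34e-05), at a low level. Eef1akmt2 was not called (0.05 ± 0.10), and Eef1akmt3 had at most 1 read in a library of either group and was not tested. In the diphthamide pathway, which modifies eEF2, 4 of 6 tested genes were lower, beside 34.2% of all tested genes. The lower ones were Dph1 (-0.89 ± 0.18), Dph2 (-0.94 ± 0.11), Dph3 (-0.93 ± 0.08) and Dph6 (-0.50 ± 0.10), while Dph5 and Dph7 were not called. The diphthamide genes were named after their values were seen, from a list of 21 tested genes with 8 higher and 8 lower.

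Eif5a, whose hypusine-bearing protein relieves stalled ribosomes, had 273, 273 and 263 CPM in mLN and 261, 268 and 275 CPM in uLN. The groups overlapped and the difference was 0.01 ± 0.04 (adjusted p = 0.855). The genes of both enzymes that make hypusine, Dhps (-0.69 ± 0.08) and Dohh (-0.40 ± 0.07), were lower. They come from the same list as the diphthamide genes and were also named after their values were seen. Eif5a2, the less abundant paralogue, had 14.7, 11.5 and 12.8 CPM in mLN and 13.8, 12.6 and 14.2 CPM in uLN (-0.06 ± 0.11). Eif6, which keeps the large subunit from joining too early, had 36.9, 38 and 34.4 CPM in mLN and 45.2, 50.3 and 46.5 CPM in uLN (-0.38 ± 0.06, adjusted p = 0.000415).

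The list of termination, recycling and rescue genes, which holds the diphthamide and hypusine enzymes, had 8 of 21 higher, 8 lower and 5 not called (median 0.08). Gtpbp2, whose product rescues stalled ribosomes, was higher (0.69 ± 0.04, adjusted p = 2.55e-07), as was the release factor gene Etf1 (0.47 ± 0.04), and the rescue gene Ascc2 was lower (-0.85 ± 0.08). Among 22 cytosolic aminoacyl-tRNA synthetase genes and their scaffolds, 4 were higher, 12 lower and 6 not called (median -0.27). Vars, the valine enzyme, had 205, 206 and 248 CPM in mLN and 79.1, 75.9 and 73.4 CPM in uLN (1.53 ± 0.08, adjusted p = 6.85e-08). Dars, the aspartate enzyme, was also higher (0.68 ± 0.04). Aars, the alanine enzyme, had 45, 47.3 and 40 CPM in mLN and 89.1, 96.7 and 86.9 CPM in uLN (-1.04 ± 0.07), and Lars, the leucine enzyme, fell by 0.62 on the log2 scale.

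Several factors, such as eEF1A and eEF2, are encoded by TOP mRNAs, which carry a pyrimidine tract at the cap and are under mTORC1 control, as are ribosomal protein mRNAs. Of 12 other genes listed as TOP or TOP-like, 8 were higher, 2 lower and 2 not called (median 0.32). Eno1, a glycolytic enzyme gene outside the translation machinery, led that list with 741, 647 and 704 CPM in mLN and 244, 258 and 254 CPM in uLN (1.47 ± 0.05). Npm1 (0.43 ± 0.05), Btf3 (0.40 ± 0.05) and Nap1l1 (0.36 ± 0.05) followed. Of 82 ribosomal protein genes, 41 were higher, 23 lower and 18 not called (median 0.12). The higher ones differed little, with 2 past 1.5-fold and none above Rpl24 at 0.76, while 15 of the lower ones passed 1.5-fold. Rpl28 had 68.5, 68.3 and 63.6 CPM in mLN and 188, 190 and 191 CPM in uLN (-1.51 ± 0.05, adjusted p = 4.33e-09). Rpl35 (-1.47 ± 0.05) and Rpl31 (-1.29 ± 0.05) were lower as well. Ribosomal protein genes have many processed copies in the genome, so their counts are uncertain. Among 11 mitochondrial translation factor genes, edgeR called 0 higher, 4 lower and 7 in neither direction (median -0.18). At an unadjusted p under 0.05 there were also 0 higher and 4 lower, DESeq2 called 0 higher and 3 lower, and 1 gene was called higher without mLN replicate 3. The lower ones were Mtif2 (-0.59 ± 0.11), Gfm1 (-0.26 ± 0.07), Tufm (-0.23 ± 0.06) and Gfm2 (-0.18 ± 0.06).

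Across libraries, most factors were even within a group. The 3 uLN libraries were alike, and mLN replicate 3 lay farther from uLN than mLN replicates 1 and 2 for Eif4b, Eif3e, Eif2d, Eif4a1, Eif3l and Eif2b4. Eif3j2, Eef1a2 and Eef1e1 varied most, all with few reads. Of the 65 genes, 24 had a value that was not a whole number in at least 1 library. Besides those named above, these include Eif1, Eif4g2, Eif4a2, Eif2b1, Eef2kmt, Eif5b, Eef2k and Eef1a1. Another coding gene overlaps 15 of the 65, among them Eif2a, Eif2d and Eif5b.

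**Figure D5:**
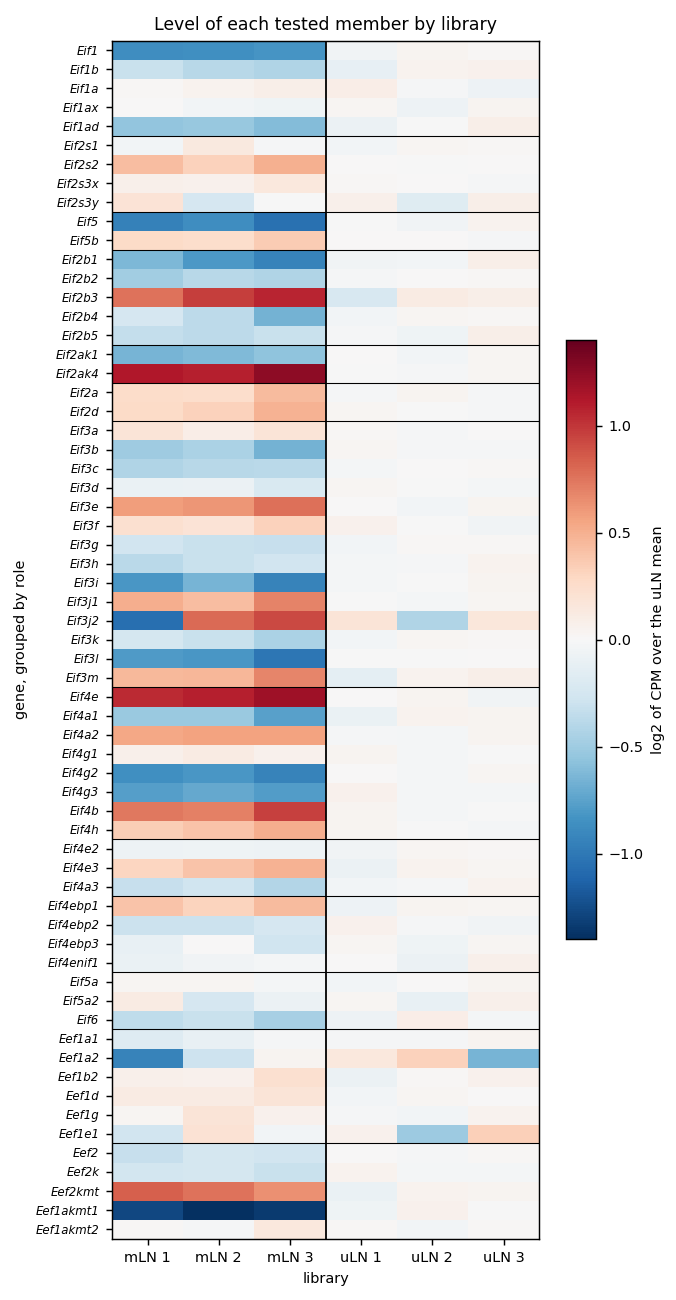
Level of each of the 63 tested factors in each library, as log2 of its CPM over its uLN mean, with the 3 mLN libraries in the left columns and the 3 uLN libraries in the right columns and lines between roles. Red is higher and blue lower than the uLN mean; Eif2ak4, Eif4e and Eif2b3 are red and Eif1, Eif5, Eif3l and Eif4g2 blue in all 3 mLN libraries.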

How the data were processed

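Per the labels' protocols, total RNA from a Qiagen RNeasy kit was made into DNBSEQ mRNA libraries. The submitters' processing notes name the tools cutadapt, FastQC and TopHat and the build GRCm38, without versions. Which tool counted reads, and whether it used strand, is not given in the sources used here. What the authors deposited is 1 table with a row per gene, in which each value is an estimated count with no scaling stated. Of the values of a library, 32.2% to 32.8% were not whole, and they were rounded for the tests. Of 17891 rows, 1 names no gene and was left out.

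The table was fitted with edgeR 4.0.16 in R 4.3.3 (quasi-likelihood test, TMM, default expression filter), mLN over uLN, with Benjamini-Hochberg adjustment over 12706 genes and calls at an adjusted p under 0.05. The fit was first tested on simulated data with few changed genes. That run cannot judge a comparison in which most tested genes were called. Values are TMM-scaled CPM, with SD over 3 libraries. Levels per kilobase use the union of GENCODE exons. Positions and promoter windows come from RefSeq for GRCm38.p6. Ratios were tested by exact permutation. No label pairs libraries by replicate number, and the main fit used no pairing. A check of shared deviations cannot settle pairing with 3 libraries per group.

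Values per library are given for called factors past 1.5-fold and 5 CPM and for a list of core factors; other genes are the first 4 called of each pathway list and 9 chosen genes, of which 1 is not reported here. The diphthamide and hypusine genes, Rpl24, Eef1akmt1 and Eif3j2 were named after their values were seen. The factors and lists were chosen with earlier results of these data known. Alternatives were other scalings, no expression filter, DESeq2 1.42.0, a replicate block, stricter call rules and leaving out each library. Precision is limited by 3 libraries per group.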

Additional observations from a re-analysis of the deposited data

How the results depend on the processing

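The comparison was refitted under 13 other settings, and 0 factors reversed direction where a call was at stake. Of the 45 called factors, 16 kept their call under all 13 settings, and 43 kept it in all 6 fits that left out a library, Eef1d and Eif3d being the exceptions. Other scaling factors moved the median log2 fold change of all genes by at most 0.03 from -0.01, and over all settings 47.5% to 52.9% of calls were upward. With mLN replicates 1 to 3 and uLN replicates 1 to 3 left out in turn, 18 to 21 factors were higher and 25 to 26 lower. The replicate block gave 18 higher and 25 lower. Same-numbered libraries did not deviate together (correlations 0.02, -0.15 and -0.01), and 0 mLN libraries were closest to the uLN library of their own number.

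Settings that ask for a larger difference or assume a larger spread gave fewer calls by construction. Tested against a fold of 1.2 with glmTreat, 14 factors were higher and 16 lower. The same setting called 3 stress response genes, 5 mTORC1 genes, 3 other initiation factors, 5 TOP genes and 17 ribosomal protein genes higher, and 1 mitochondrial factor and 1 TOP gene lower.

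With a biological coefficient of variation of 0.2, 6 factors were higher and 10 lower, beside 19 and 26. That setting gave 2 higher and 7 lower for the tRNA synthetases, 2 and 7 for the stress response, 4 and 3 for mTORC1, 1 and 1 for other initiation factors, 1 and 5 for termination and rescue, 1 and 0 for TOP genes, 2 and 15 for ribosomal proteins, and 1 lower for mitochondrial factors. The stress response list had 5 to 8 higher genes with a library left out, 5 with DESeq2 and 5 with no expression filter, beside 8; the cause was not tested. The mitochondrial list had 0 to 1 higher with a library left out. Pairs whose groups did not overlap kept the direction of their ratio difference without any 1 library, which non-overlap ensures. The small log2 differences of Eif5a2 to Eif5a (-0.07) and Eef2k to Eef2 (0.01) changed sign when some single libraries were left out.

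Depth limits Eif2s3y, Eif3j2, Eef1a2, Eef1e1 and Eef1akmt1, which have the fewest reads of the tested factors.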
